A study of Mus musculus with 18 samples.

Results

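Among the 12 libraries of cultured mouse cortical astrocytes taken 90 min after ligand, 3 stood apart from the rest, and they crossed the labelled groups. They were library 1 of the EGFP control (EGFP 1) and libraries 2 and 3 of the receptor rM3Ds. Here those 3 libraries are set against the other 3 of the same 2 constructs, EGFP 2, EGFP 3 and rM3Ds 1, so that 6 of the 18 libraries of the series are described. The libraries were chosen on measured values, namely the score of each library on the first principal component of log2 expression over 13584 genes, and this component held 52.5% of the variance. A difference between the sets in any gene of these libraries is therefore a description, given without a test. Below, the sets are called the Mki67-high libraries and the C3-high libraries after genes that lay far apart in them.

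The cells were cultured cortical astrocytes grown in serum, transfected with a plasmid for rM3Ds, hM4Di or hM3Dq or with a fluorescent control. These receptors are DREADDs, designer G protein-coupled receptors that a synthetic ligand activates: rM3Ds couples to Gs, hM4Di to Gi and hM3Dq to Gq. All groups, controls included, were given the DREADD ligand deschloroclozapine (DCZ) at 8 µM for 90 min, and all had 3 libraries. RNA was collected at 90 min from rM3Ds, hM4Di, hM3Dq and EGFP cultures, and at 3 days, after a change to medium without ligand, from hM3Dq and mCherry cultures. The labels used here do not say which cultures, animals or days the 6 libraries shared, nor the promoter of the plasmids, so a culture of origin and a set cannot be told apart. Nothing says that the replicates of a group came from separate cultures, and p-values then measure only the spread between these libraries, which may be technical.

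Astrocytes kept in serum-containing medium are known to divide until the dish is crowded, and cells in cycle carry high levels of transcripts for DNA replication and for mitosis. Fabp7 and Nes mark radial glia and immature astrocytes. Under inflammatory cytokines, astrocytes are known to raise acute phase and complement transcripts such as C3, Lcn2 and Serpina3n, driven largely by the transcription factors NF-kB, STAT3 and C/EBP.

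On the first component EGFP 1 scored 65.5, rM3Ds 3 scored 54.9 and rM3Ds 2 scored 53.3. In the same constructs EGFP 2 scored -20.4, rM3Ds 1 scored -24.1 and EGFP 3 scored -25.5. The value nearest to the Mki67-high libraries from outside was 8.6, in hM4Di 1, and the remaining hM4Di and hM3Dq libraries lay between -25.4 and -17.5. The gap between 53.3 and 8.6 was 49.1% of the whole range of scores. When the genes of the 3 cell cycle lists were left out before the component was computed, the gap was 50% of the range.

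**Figure D1:**
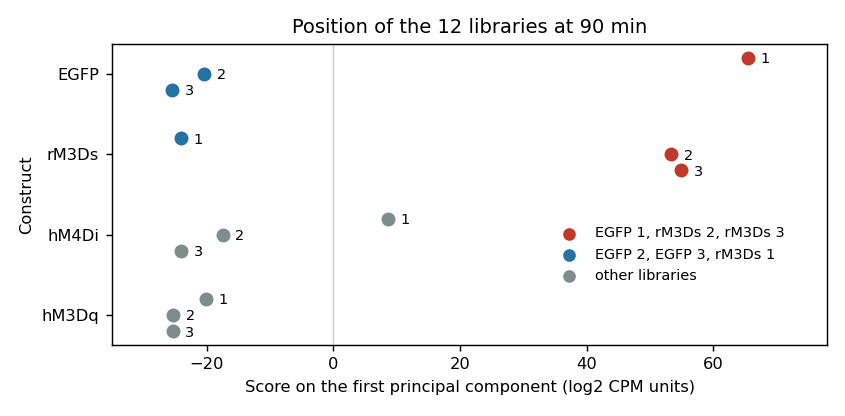
Score of each of the 12 libraries at 90 min on the first principal component of log2 CPM (x axis), by construct (y axis), with the replicate number beside each point. EGFP 1, rM3Ds 2 and rM3Ds 3 lie above 53, hM4Di 1 lies at 8.6, and the other 8 libraries lie below -17.

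Depth did not separate the sets. Total estimated counts were 21.53 M, 17.72 M and 16.07 M in EGFP 1, rM3Ds 2 and rM3Ds 3, and 17.34 M, 17.16 M and 17.38 M in EGFP 2, EGFP 3 and rM3Ds 1. The 50 most abundant genes took 10.97% to 12.18% of the counts in the 6 libraries, and ribosomal protein genes took 2.63% to 3.01%. Libraries of one construct and set were not copies of each other: rM3Ds 2 was at least 2-fold above rM3Ds 3 in 136 genes and at least 2-fold below it in 101 genes, and EGFP 2 stood to EGFP 3 likewise in 124 and 108 genes.

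Levels below are in CPM, counts scaled to a common library size (per M counts), always in the order EGFP 1, rM3Ds 2, rM3Ds 3 and then EGFP 2, EGFP 3, rM3Ds 1. The set difference of a gene is the log2 CPM of the Mki67-high library or libraries minus that of the C3-high ones, taken within EGFP and within rM3Ds and averaged over both constructs. A positive value means a higher level in EGFP 1, rM3Ds 2 and rM3Ds 3. A gene counts as higher or lower where the difference was at least 2-fold in the same direction in both constructs. CPM does not allow for transcript length, so levels are compared between libraries and not between genes.

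By this measure 693 of 13584 genes were higher in the Mki67-high libraries (5.1% of all genes) and 293 were lower (2.16%). Counts of list members below are to be read against these shares. The difference was uneven at its extremes. At a mean of at least 2 on the log2 scale, 382 genes were higher and 69 lower, and at a mean of at least 3 there were 136 higher and 10 lower genes. The median over all genes was -0.01. Across genes, which are not independent replicates, the difference within EGFP and that within rM3Ds correlated at a Pearson r of 0.76, but not every large difference was shared. In EGFP 358 genes were past 2-fold upward and 400 downward without reaching 2-fold in that direction in rM3Ds. In rM3Ds 216 and 216 were so without reaching it in EGFP. These counts include 22 genes past 2-fold in opposite directions, 8 of them higher and 14 lower in EGFP 1.

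**Figure D2:**
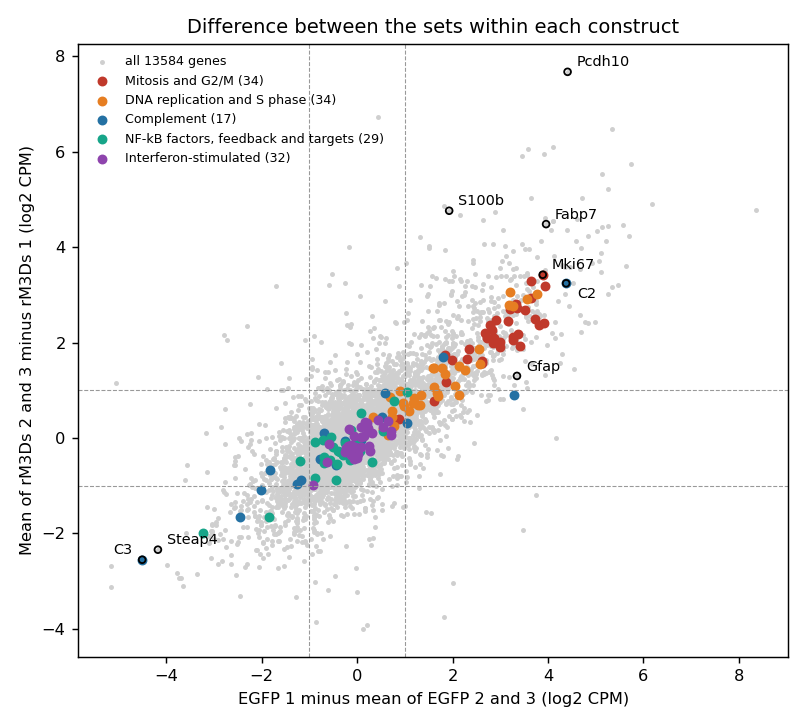
Difference in log2 CPM between the sets within EGFP (x axis) and within rM3Ds (y axis), 1 point per gene, with members of 5 gene lists in colour, 8 genes named and dashed lines at 2-fold. Mitosis genes fill the upper right, interferon-stimulated genes lie around 0, and complement genes lie at both ends, C2 at the upper right and C3 at the lower left.

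The mitosis genes were the most uniform group. Of 34 members tested, 32 were higher in the Mki67-high libraries and none was lower, and the list's median difference was 2.62 on the log2 scale, 2.99 within EGFP and 2.14 within rM3Ds. Mki67 (Entrez 17345), which coats mitotic chromosomes and marks cells in cycle, was at 79.9, 42.0 and 52.2 CPM against 6.69, 4.15 and 4.28 CPM. Ube2c (68612), the ubiquitin-conjugating enzyme of the anaphase-promoting complex, was at 27.7, 16.1 and 13.7 CPM against 1.77, 1.67 and 1.54 CPM. Top2a, the topoisomerase that untangles chromosomes, was at 108, 66.7 and 72.8 CPM against 16.5, 13.9 and 14.5 CPM. EGFP 1 was the highest library for each of these genes, and rM3Ds 2 and rM3Ds 3 followed close together. The C3-high libraries lay below them, but the sets were chosen on these same libraries. Cenpf, a kinetochore protein, differed by 3.47 and the spindle checkpoint kinase Bub1 by 3.29, while Ccnb1 and Cdk1, the cyclin and kinase that drive entry into mitosis, differed by 3.04 and 2.11.

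Many mitosis genes share promoter elements. The cell cycle genes homology region (CHR, letters TTTGAA) is bound by the DREAM and MuvB complexes, and the CCAAT box (letters CCAAT) by NF-Y. In the RefSeq promoter windows of build GRCm38.p6, each 300 bases long with 250 before and 50 after the gene's start, both were searched on both strands. A window was found for 10757 of the 13584 genes and for 28 of the 34 mitosis genes. A CHR stood in 20 of those 28 windows (71.4%), against 11.9% of all windows, and a CCAAT box also stood in 71.4%, against 39.1% of all. Among all 693 genes higher in the Mki67-high libraries, 21.5% of 489 windows held a CHR, and among the 293 lower genes 14.4% of 201 windows did. A match is a description of letters, not of a bound site. The CHR lay within the 150 bases before the start in 8 of the 28. The 4 shown were taken from these in order of set difference, passing over a chromosome whose sequences were not printed. They are shown because they are among the genes that lay far apart between the libraries. Capitals mark each CHR and CCAAT box, read on either strand.
Mki67 (chr7:135716380-135716529, minus strand): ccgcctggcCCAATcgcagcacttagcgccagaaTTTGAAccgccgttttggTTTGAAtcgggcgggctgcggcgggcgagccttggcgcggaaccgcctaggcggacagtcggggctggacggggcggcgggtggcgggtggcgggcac
Ube2c (chr2:164769779-164769928, plus strand): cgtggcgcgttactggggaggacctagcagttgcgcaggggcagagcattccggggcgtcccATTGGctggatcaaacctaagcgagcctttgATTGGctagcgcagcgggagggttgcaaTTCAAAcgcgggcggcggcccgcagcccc
Kif2c (chr4:117178773-117178922, minus strand): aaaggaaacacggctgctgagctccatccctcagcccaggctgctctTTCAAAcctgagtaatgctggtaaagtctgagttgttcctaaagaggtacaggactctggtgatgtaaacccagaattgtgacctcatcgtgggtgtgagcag
Top2a (chr11:99024190-99024339, minus strand): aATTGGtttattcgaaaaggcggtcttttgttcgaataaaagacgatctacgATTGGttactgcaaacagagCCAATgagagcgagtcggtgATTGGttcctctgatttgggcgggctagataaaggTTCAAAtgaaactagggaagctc

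DNA replication genes also lay higher, but by less. Of 34 members tested, 15 were higher in both constructs and none was lower, all 34 had a difference above 0 in both constructs, and the median was 1.30 (1.60 within EGFP and 0.92 within rM3Ds). E2f8, an atypical E2F repressor made in S phase, was at 9.22, 6.15 and 6.41 CPM against 0.629, 0.749 and 0.741 CPM. Mcm5, a subunit of the replicative helicase, was at 40.1, 22.2 and 23 CPM against 4.06, 4.09 and 3.25 CPM. The pattern over the libraries was that of the mitosis genes, with EGFP 1 highest. Rrm2, the small subunit of ribonucleotide reductase, differed by 2.99 and E2f7, the partner of E2f8, by 3.12. An E2F site (letters TTTGGCGC or TTTCCCGC) stood in 35.7% of the 28 windows found for this list, in none of the 28 mitosis windows and in 3.01% of all windows.

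The mixed list of cyclin D genes, CDK inhibitors and genes of exit from the cycle did not move as a group. Of 22 tested, 1 was higher, 1 was lower and the median was 0.17. The higher one was Ccnd1, cyclin D1, which couples growth factors to cell cycle entry, at 3130, 1820 and 1790 CPM against 562, 557 and 530 CPM. The lower one was Gas1, a membrane protein raised in growth-arrested cells, at 7.28, 9.09 and 8.84 CPM against 16.6, 18.7 and 25.4 CPM. Both genes were picked by the 2-fold rule in these same libraries, so their lack of overlap between the sets adds no support.

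Among 26 glial progenitor and radial glia genes tested, 5 were higher in both constructs, none was lower and the median was 0.27. Over all genes 5.1% were higher and 2.16% lower. Fabp7 (12140), the brain lipid-binding protein of radial glia, was at 52.7, 84.7 and 80.4 CPM against 2.92, 3.69 and 3.59 CPM. Nes, the intermediate filament nestin, was at 781, 636 and 623 CPM against 257, 203 and 251 CPM. Hes1, a Notch target that holds progenitors undifferentiated, was at 47.3, 34.3 and 30.9 CPM against 10.5, 11.3 and 14.1 CPM. Here rM3Ds 2 and rM3Ds 3 were above EGFP 1 for Fabp7 and below it for Nes and Hes1. The other 2 higher genes were the receptors Gpr37l1 and Ptprz1, both under 3 CPM in every one of the 6 libraries. Sox2, a transcription factor of neural stem cells and astrocytes, was much the same in both sets, at 171, 197 and 198 CPM against 211, 206 and 217 CPM, and Msi1, an RNA-binding protein of progenitors, was lower by 1.06 on average without reaching 2-fold in rM3Ds. The list as a whole therefore did not shift in the way the mitosis list did.

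Astrocyte identity genes were split. Of 23 tested, 4 were higher, 2 were lower and the median was -0.03. S100b, a calcium-binding protein of mature astrocytes, was at 8.32, 94.5 and 87.1 CPM against 2.40, 1.84 and 3.25 CPM. Kcnj10, the inward rectifier potassium channel Kir4.1, was at 8.75, 27.2 and 35.1 CPM against 1.26, 1.38 and 1.20 CPM. Gfap, the astrocyte intermediate filament, was at 23.2, 10.1 and 9.53 CPM against 2.00, 2.36 and 3.93 CPM. All 3 were higher in the Mki67-high libraries, S100b and Kcnj10 most in rM3Ds 2 and rM3Ds 3 and Gfap most in EGFP 1. In the opposite direction, Slc1a2, the glutamate transporter GLT-1, was at 13.3, 27.8 and 39.8 CPM against 65.6, 73.4 and 74.2 CPM, and Apoe, the lipid carrier that astrocytes secrete, was at 93.7, 161 and 140 CPM against 533, 541 and 707 CPM. Aqp4, the water channel of astrocyte endfeet, and Aldh1l1, a folate enzyme used as an astrocyte marker, overlapped between the sets, with differences of -0.20 and -0.17. Among the fixed astrocyte markers, Aqp4, Aldh1l1, Slc1a3 and Sox9 were above 32 CPM in all 6 libraries. Others were lower in at least some libraries: Gfap did not pass 23.2 CPM in any, S100b was at 1.84 CPM in EGFP 3 and Slc1a2 at 13.3 CPM in EGFP 1. These levels do not rank the genes against each other.

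The sets had been described as proliferative against inflamed cultures, which holds for the cell cycle genes, while the inflammation genes lay in both directions and most were within 2-fold. Over the 6 gene lists of inflammation described next, the share of tested members that were lower in the Mki67-high libraries ran from 0% to 19%, against 2.16% of all genes. Of 17 complement genes tested, 3 were lower and 2 higher (median -0.29). C3 (12266), the central complement component, was at 25, 178 and 173 CPM against 579, 556 and 1030 CPM. C4b, which forms the classical pathway convertase, was at 300, 565 and 588 CPM against 1200, 1230 and 1220 CPM, and Cfi, the protease that inactivates C3b, was at 4.40, 9.59 and 7.97 CPM against 24.2, 25.1 and 27.7 CPM. In contrast C2, the serine protease that joins C4 in that convertase, was at 16.6, 6.93 and 8.97 CPM against 0.458, 1.04 and 0.741 CPM. Serping1, the inhibitor of C1, was also higher, at 79.0, 74.5 and 64.6 CPM against 20.9, 24.5 and 21.3 CPM. Genes of one pathway thus lay in both directions, and the other 12 of the 17 did not reach 2-fold in both constructs. These 5 were picked by that rule in these same libraries, so their lack of overlap between the sets adds no support.

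Of 32 acute phase and reactive astrocyte genes tested, 6 were lower, 1 was higher and the median was -0.02. Steap4 (117167), a metalloreductase raised by inflammation, was at 2.89, 16.7 and 18.4 CPM against 51.5, 56.2 and 89.0 CPM. Serpina3n, a protease inhibitor of reactive astrocytes, was at 1.51, 3.94 and 4.67 CPM against 11.6, 13.5 and 15.4 CPM. S1pr3, a receptor for sphingosine 1-phosphate, was at 9.51, 17.1 and 19.4 CPM against 127, 122 and 141 CPM. For each of them EGFP 1 was the lowest of the 6 libraries. Lcn2, an iron-binding protein and a strong marker of inflamed astrocytes, overlapped between the sets, at 0.189, 11.8 and 8.47 CPM against 3.43, 3.51 and 18.5 CPM. Saa3, another acute phase gene, was at or below 0.172 CPM in all 6 libraries.

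Among 21 cytokines and chemokines tested, 4 were higher and 4 lower (median -0.09). The lower ones were monocyte and T cell attractants: Ccl2 was at 2.08, 5.88 and 4.17 CPM against 8.30, 9.10 and 17.7 CPM, and Ccl7 at 0.568, 2.22 and 1.49 CPM against 5.15, 4.84 and 12 CPM. The other lower chemokines were Ccl8 and Cxcl10. In the opposite direction, Il33, an alarmin kept in the nucleus, was at 3010, 1990 and 1860 CPM against 541, 603 and 614 CPM, and Tslp, a cytokine of barrier tissues, was at 11.9, 11.4 and 8.53 CPM against 0.744, 0.807 and 1.48 CPM. The other higher ones were the cytokine Il6 and the receptor antagonist Il1rn, neither of which passed 2.61 CPM.

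Of 29 NF-kB factors, feedback inhibitors and targets tested, 2 were lower, none was higher and the median was -0.33, with 20 of the 29 below 0 in both constructs. Vcam1, an adhesion molecule, was at 290, 375 and 386 CPM against 1020, 1080 and 1190 CPM. The other lower gene was the pattern receptor Tlr2, under 6 CPM in every one of these libraries. None of 32 interferon-stimulated genes and none of 20 MHC class I and immunoproteasome genes reached 2-fold in both constructs, with medians of -0.01 and -0.21. Over these 6 lists, whose genes partly repeat, 14 of 146 genes tested were lower in both constructs (9.59%, against 2.16% of all genes) and 7 were higher (4.79%, against 5.1% of all).

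**Figure D3:**
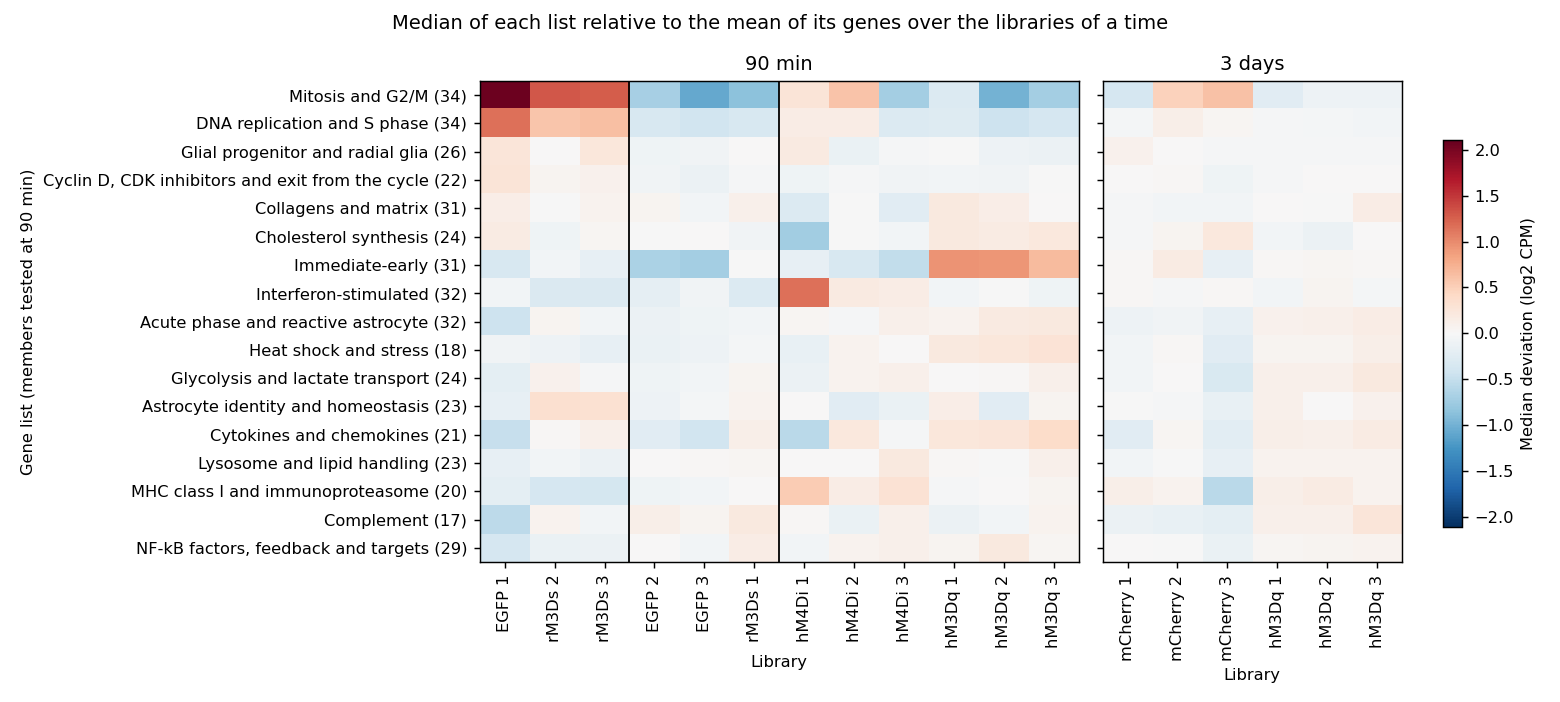
Median of each gene list in each library, as the deviation of log2 CPM from each gene's mean over the 12 libraries at 90 min (left) or the 6 libraries at 3 days (right), for 17 lists. The mitosis list runs from 2.06 in EGFP 1 to -1.08 in EGFP 3, while the complement, acute phase and NF-kB lists stay between -0.55 and 0.25.

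The genes with the highest set difference were mostly not cell cycle genes. Leaving aside genes whose log2 CPM averaged under 1, the highest was Pcdh10, a protocadherin of cell adhesion, at 7.38, 60.4 and 76.4 CPM against 0.458, 0.115 and 0.228 CPM. Ncan, the chondroitin sulfate proteoglycan neurocan made by astrocytes, was at 24.6, 113 and 128 CPM against 2.29, 1.67 and 1.71 CPM. Both were higher in rM3Ds 2 and rM3Ds 3 than in EGFP 1, and the same held for the receptor tyrosine kinase Ret, at 6.91, 14.6 and 11.8 CPM against 0.687, 0.403 and 0.114 CPM. In other genes of this group EGFP 1 was the highest library. Upk1b, a tetraspanin of urothelium, was at 28.0, 16.6 and 13.7 CPM against 0.229, 0.346 and 0.399 CPM, and Msln, mesothelin, was at 82.5, 39.2 and 35.7 CPM against 3.26, 1.38 and 2.05 CPM. Adra1b, an adrenergic receptor that couples to Gq, was at 31.7, 17.6 and 14.3 CPM against 0.915, 0.576 and 0.627 CPM.

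Secreted signals were among them too. Areg, the EGF receptor ligand amphiregulin, was at 30.2, 37.2 and 30.7 CPM against 0.629, 0.403 and 2.68 CPM, and Wnt6, a Wnt ligand, was at 34.9, 22.7 and 23 CPM against 1.03, 1.73 and 0.855 CPM. The remaining members of the 12 highest were the adhesion protein Ntm (5.33), Brinp1 (4.87), the serpin Serpinb9b (4.50) and Pcdhga7 (5.74), with the set difference in brackets. Pcdhga7 shares its last exons with the other gamma protocadherins, so its count is uncertain. For each of these 12 genes the lowest Mki67-high library was above the highest C3-high library, but the genes were chosen for their difference in these same libraries.

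At the other end, C3 and Steap4 were joined by genes of other kinds. Sorcs1, a sorting receptor of neurons, was at 25.3, 38.6 and 37.0 CPM against 305, 335 and 327 CPM. Trpm3, a steroid- and heat-gated cation channel and the host gene of miR-204, was at 6.91, 10.8 and 13.0 CPM against 92.8, 93.3 and 91.1 CPM. C4bp, the binding protein that restrains C4, was at 9.32, 25.7 and 23.2 CPM against 147, 148 and 155 CPM. In these genes the C3-high libraries were close to one another and EGFP 1 was the lowest. Luzp2 was at 5.20, 8.92 and 7.91 CPM against 48.3, 60.2 and 61.1 CPM, and Ndrg2, an astrocyte protein that slows proliferation in some tumours, was at 6.48, 13.0 and 12.1 CPM against 51.9, 57.7 and 72.6 CPM. The remaining members of the 12 lowest were S1pr3 and Ccl7, given above, Rnf17 (-3.29), Plxdc1 (-2.78) and the angiopoietin Angpt4 (-2.70).

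C3 and Steap4 are shown by sequence because they are the given markers of the C3-high libraries. Each has a match to the letters TTGCNNAA of C/EBP in the 150 bases before its start, in capitals, and neither has a match to the NF-kB consensus there. The C/EBP letters stood in 7.96% of the windows of the 293 lower genes, against 8.16% of all windows, and the NF-kB consensus in 7.46%, against 5.02% of all.
C3 (chr17:57228137-57228286, minus strand): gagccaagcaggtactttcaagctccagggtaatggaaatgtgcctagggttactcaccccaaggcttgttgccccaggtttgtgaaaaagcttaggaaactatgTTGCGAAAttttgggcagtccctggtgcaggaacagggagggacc
Steap4 (chr5:7960322-7960471, plus strand): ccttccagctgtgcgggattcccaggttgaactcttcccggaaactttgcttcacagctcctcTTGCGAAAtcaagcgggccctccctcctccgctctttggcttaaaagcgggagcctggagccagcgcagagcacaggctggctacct

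**Figure D4:**
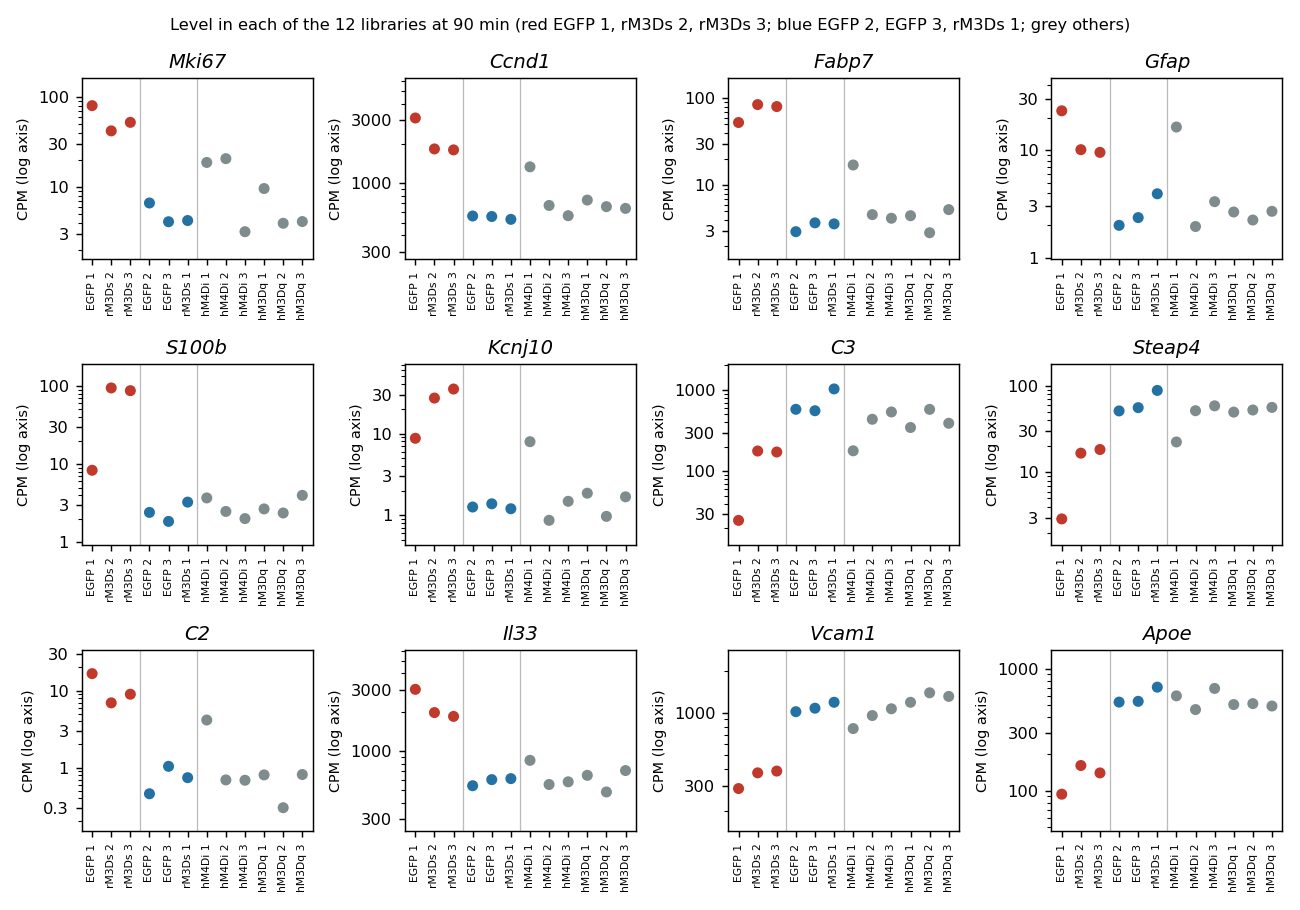
Level of 12 genes in each of the 12 libraries at 90 min (CPM, log axis), 1 point per library. The Mki67-high libraries lie above the C3-high ones for Mki67, Ccnd1, Fabp7, Gfap, S100b, Kcnj10, C2 and Il33 and below them for C3, Steap4, Vcam1 and Apoe, and hM4Di 1 lies at or beyond the edge of the C3-high libraries, toward the Mki67-high ones, for all of these genes but Apoe.

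Collagens and matrix genes were split as well: of 31 tested, 3 were higher and 3 lower (median 0.16). Thbs1, the matrix protein thrombospondin 1, was at 2810, 1820 and 1750 CPM against 871, 738 and 689 CPM, and the other higher ones were Fn1 and Col3a1. Postn, periostin, was at 105, 247 and 265 CPM against 598, 713 and 664 CPM, and Col1a2, a chain of type I collagen, was at 220, 94.4 and 106 CPM against 497, 453 and 599 CPM. Spp1, osteopontin, was the third lower member. In the remaining lists, none of 31 immediate-early, 24 cholesterol synthesis or 24 glycolysis genes reached 2-fold in both constructs. Of 18 heat shock and stress genes 1 was higher, the small chaperone Hspb1 at 61.2, 51.5 and 43.8 CPM against 16.7, 12.1 and 13.9 CPM, and of 23 lysosome and lipid genes the scavenger receptor Cd36 was higher and Apoe lower.

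Markers of other cell types differed between the sets in part, and whether cell composition took part in the differences above was not tested. In bulk RNA, fewer cells of a type and less RNA per cell cannot be told apart. Summed over 18 microglia and macrophage markers, the level was 5.48 to 21.8 CPM in the Mki67-high libraries and 3.65 to 5.78 CPM in the C3-high ones. Cx3cr1, Ptprc, P2ry12 and C1qb had at most 3 counts over all 6 libraries, and Aif1 and Itgam did not pass 0.187 CPM in any. Of the 4 members that passed the filter on low counts 1 was higher, 3 lay above 0 in both constructs and the median was 0.97. The higher one was Lyz2, the lysozyme of myeloid cells, at 7.95, 2.83 and 1.99 CPM against 0.229, 0.403 and 0.627 CPM, and Tmem119, a microglial membrane protein, was at 8.99, 2.27 and 1.93 CPM against 3.38, 1.79 and 1.60 CPM. EGFP 1 was the highest of the 6 libraries for both. The 14 neuron markers summed to 207 to 221 against 127 to 145 CPM. Of these, Stmn2, a tubulin-binding protein, was at 46.7, 50.1 and 42.4 CPM against 3.03, 2.25 and 1.88 CPM, while Snap25 and Elavl4 had at most 3 counts in all.

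The 6 ependyma markers summed to 108 to 126 CPM against 211 to 248 CPM, nearly all of it from Foxj1, the regulator of motile cilia, at 102, 113 and 122 CPM against 236, 209 and 246 CPM. The markers were not uniform: of the 3 that passed the filter on low counts, 2 were lower and 1 was higher in the Mki67-high libraries. Endothelial markers (10 genes) summed to 10.1 to 17.3 CPM against 27.0 to 32.3 CPM, with the angiopoietin receptor Tek at 5.16, 2.99 and 4.30 CPM against 23.2, 22.2 and 18.6 CPM, and Cdh5 and Cldn5 below 0.24 CPM in all 6. The 16 fibroblast and mural markers overlapped in their sum, at 2140 to 3090 CPM against 2340 to 3090 CPM, but not in their members. Acta2, smooth muscle actin, was at 336, 425 and 338 CPM against 88.5, 80.5 and 88.4 CPM and Tagln, the actin-binding protein transgelin, was at 428, 293 and 235 CPM against 117, 112 and 124 CPM. Of the 12 tested in this list 5 were higher and 3 lower. The 14 oligodendrocyte lineage markers summed to 100 to 103 CPM against 110 to 120 CPM, with Mbp, myelin basic protein, lower at 1.37, 3.38 and 1.99 CPM against 8.35, 7.03 and 6.61 CPM.

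Within the Mki67-high set, the constructs were not alike. rM3Ds 2 and rM3Ds 3 together were at least 2-fold above EGFP 1 in 352 genes and at least 2-fold below it in 294, whereas rM3Ds 1 was at least 2-fold above EGFP 2 and EGFP 3 in 88 genes and below them in 130. The cell cycle genes, C3 and Steap4 were more extreme in EGFP 1. Slco1c1, a thyroid hormone transporter named here after its values were seen, was at 1.37, 24.6 and 30.4 CPM against 1.54, 1.56 and 1.60 CPM, so that EGFP 1 was like the C3-high libraries. With EGFP 1 as the single library of its construct in the set, the receptor and the single culture cannot be told apart.

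The other receptors gave further libraries of the same time, which the component also used. On a scale where the mean of the C3-high libraries is 0% and that of the Mki67-high libraries 100%, hM4Di 1 lay at 40.8% over the higher genes and at 34.6% over the lower genes. The remaining 5 hM4Di and hM3Dq libraries lay between -0.4% and 11.8%. In hM4Di 1, Gfap was at 16.4 CPM, Fabp7 at 17.1 CPM and Ccnd1 at 1330 CPM, each above every C3-high library, and C3 was at 179 CPM, at the level of rM3Ds 2. The cell cycle did not follow the same order: the mitosis list deviated by 0.60 in hM4Di 2 and 0.27 in hM4Di 1, and Mki67 was at 20.7 and 18.8 CPM. hM4Di 1 also stood out for interferon-stimulated genes, with a list median of 1.15 against -0.30 to -0.05 in the 6 EGFP and rM3Ds libraries.

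The sets bear on the comparison the labels define, rM3Ds against EGFP at 90 min, since rM3Ds has 2 Mki67-high libraries of 3 and EGFP has 1. That comparison was tested with edgeR's quasi-likelihood test over the 4 groups at 90 min. It called 2 of 13584 genes (0.0147% higher with rM3Ds, 0% lower), and at an unadjusted p under 0.05 there were 407 higher and 168 lower genes. None of the 693 genes higher in the Mki67-high libraries was called by edgeR and 25 had an unadjusted p under 0.05, all higher with rM3Ds. DESeq2, which called 56 genes higher (0.339%) and 5 lower (0.0303%), called 1 of the 693, S100b. Of the 293 lower genes none was called by either tool and none had an unadjusted p under 0.05. The 693 and the 293 genes were chosen for a difference of at least 2-fold within each construct in these same libraries. That choice widens their spread and their errors within both groups. Few calls could therefore arise, and their absence is no result about rM3Ds. The genes with the largest set differences had wide errors here: Pcdh10 had a log2 fold change of 4.06 ± 1.57 (SE) with rM3Ds, Fabp7 of 1.5 ± 1.17, Mki67 of 0.11 ± 1.11 and C3 of 0.25 ± 0.95, with an edgeR adjusted p of 1 for each.

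The called genes had small set differences, -0.24 for Vgf and -0.21 for Nr4a2, and the test favours genes with a small spread within groups. Vgf, the precursor of several secreted neuropeptides, was at 7.19, 6.21 and 7.28 CPM in rM3Ds 1, 2 and 3 and at 0.426, 0.744 and 0.461 CPM in EGFP 1, 2 and 3, so each rM3Ds library was above each EGFP library, whichever set it belonged to. Its log2 fold change was 3.66 (edgeR adjusted p = 0.000458), and with a term for EGFP 1, rM3Ds 2 and rM3Ds 3 in the model it was 3.73 (adjusted p = 0.000213). Nr4a2, an orphan nuclear receptor and immediate-early gene, was at 25.7, 28.4 and 30.9 CPM with rM3Ds and at 5.82, 9.55 and 8.47 CPM with EGFP. Its log2 fold change was 1.84 (adjusted p = 0.00203) and with the term 1.90 (adjusted p = 0.00169), and the number of called genes with the term was again 2. In a fit on the 6 libraries alone neither passed the threshold (adjusted p = 0.183 for Vgf and 0.339 for Nr4a2) and 0 genes were called.

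Leaving out a single library changed this count most. Without rM3Ds 1, the rM3Ds group holds Mki67-high libraries only, and edgeR then called 115 of 13833 genes, 87 higher (0.629%) and 28 lower (0.202%). Of the 693 higher genes 3 were among them, S100b, Syt13 and Opcml, and of the 293 lower genes 2, Col1a2 and Pcbd1. S100b had a log2 fold change of 4.42 ± 0.52 (SE, adjusted p = 0.00444) without rM3Ds 1, and of 3.86 ± 0.98 (adjusted p = 0.573) with it. Gfap had a log2 fold change of -0.23 with rM3Ds (adjusted p = 1) and of 1.86 (adjusted p = 0.372) without EGFP 1, and Fos, an immediate-early gene that differed by -0.23 between the sets, had one of 0.55 (adjusted p = 0.621).

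The 6 libraries at 3 days had no part in choosing the sets, and they show how the same genes varied in other cultures. Among the genes that passed the filter on low counts at 3 days, neither group separated them. Over 461 of the 693 higher genes the median deviation lay between -0.06 and 0.13 in the 6 libraries. Over 267 of the 293 lower genes it lay between -0.05 and 0.05. In the Mki67-high libraries at 90 min, over all 693 and all 293 genes, it was 1.25 to 1.66 and -1.20 to -0.97. The genes were chosen for their difference at 90 min, so those values are large by choice. Deviations at 3 days are taken from each gene's mean at 3 days. A state shared by all 6 libraries there would not show in them. The higher genes too low for the filter at 3 days are not covered. The mitosis list varied more, from -0.36 in mCherry 1 to 0.62 in mCherry 3. Mki67 was at 1.98, 6.54 and 9.53 CPM in mCherry 1, 2 and 3 and at 2.92, 2.76 and 3.47 CPM in hM3Dq 1, 2 and 3. mCherry 2 and 3 were thus above the other 4 libraries, and none of the 6 came near the lowest Mki67-high library at 90 min, which had 42.0 CPM. Fabp7 was between 0.953 and 3.52 CPM in all 6.

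In the tested comparison at 3 days, hM3Dq against mCherry, edgeR called 0 of 12807 genes (0%), with 583 higher and 957 lower genes at an unadjusted p under 0.05. Of the higher genes 461 were tested and 0 were called (43 higher and 35 lower at an unadjusted p under 0.05), and of the lower genes 267 were tested and 0 called (36 and 26). DESeq2 called 140 genes, 69 higher (0.532%) and 71 lower (0.548%). Of the genes higher in the Mki67-high libraries it called 8 higher and 1 lower out of 485, and of the genes lower there it called 17 higher and 0 lower out of 273. The smallest edgeR p-values among all of them were those of Slc43a3, Kcna4, Cdh13 and Smoc2. Slc43a3, a purine base transporter, was at 77.2, 80.0 and 91.1 CPM in hM3Dq 1, 2 and 3 and at 50.2, 50.8 and 56.2 CPM in mCherry 1, 2 and 3. Smoc2, a matrix protein that binds calcium, was at 19.8, 17.3 and 22.9 CPM against 11.5, 12.2 and 10.3 CPM. Both genes were picked for their small p in these libraries, so the lack of overlap between the groups adds no support. Neither passed the correction (log2 fold changes of 0.66 and 0.82, edgeR adjusted p = 0.199 and 0.2).

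C3 was at 151, 146 and 209 CPM with hM3Dq and at 107, 98.0 and 102 CPM with mCherry at 3 days, with a log2 fold change of 0.72 ± 0.14 (SE, edgeR adjusted p = 0.227). Steap4 was at 66.3, 68.8 and 83.6 CPM against 41.6, 41.0 and 50.3 CPM, also with 0.72 (SE 0.13, adjusted p = 0.205). Both were higher in each hM3Dq library than in each mCherry library. mCherry 3 stood apart at 3 days, with 40.21% of its values not whole numbers against 27.0% to 29.5% in the other 5 libraries. Without it edgeR called 1257 genes, 536 higher (4.15%) and 721 lower (5.58%), and the genes lower in the Mki67-high libraries were called higher in 35 of 271 and lower in 20. Among the genes higher in the Mki67-high libraries 28 of 476 were then called higher and 15 lower. Steap4 passed in that fit (log2 fold change 0.82, adjusted p = 0.00043), as did C4bp (0.58, adjusted p = 0.000705) and S1pr3 (0.53, adjusted p = 0.000784). C3 did not pass in it (0.72, edgeR adjusted p = 0.124). DESeq2 on all 6 libraries also called C3 (adjusted p = 0.00277), Steap4 (adjusted p = 0.00148), C4b (0.41, adjusted p = 0.0262), Cfi (0.65, adjusted p = 0.0334) and C4bp (0.54, adjusted p = 0.00399), all higher with hM3Dq. These complement genes were lower in the Mki67-high libraries, but Serping1, which was higher there, was also called higher with hM3Dq (0.80, adjusted p = 0.0345).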

How the data were processed

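Poly-A RNA-seq tables of estimated counts per gene were deposited by the authors for 12 libraries at 90 min and 6 at 3 days. fastp 0.23.4, Salmon 1.8.0 and build mm39 are named in the submitters' processing notes, and the step from transcripts to genes is not given in the sources used here. Estimated counts split reads shared by paralogs, so near-identical genes are uncertain. Symbols were matched to Entrez identifiers for 21978 of 22078 rows. Counts were rounded, filtered with edgeR's default and scaled by TMM (edgeR 4.0.16, limma 3.58.1, R 4.3.3). log2 CPM used a prior count of 2, which understates differences of low genes, and the threshold was a Benjamini-Hochberg adjusted p of 0.05. The test step was run on simulated data in which no sets crossed the groups, so that run does not cover this feature of the 90 min libraries.

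The members and the 23 gene lists were chosen with earlier results of these data known. Named genes were the 4 given markers, the 12 highest and 12 lowest set differences (mean log2 CPM of at least 1, at least 2-fold in both constructs), up to 4 members per list by size of difference, fixed cell type markers, genes called where they numbered few, and the 4 set genes with the smallest p at 3 days. Others were chosen after their values were seen, as were the gene families. Alternatives were DESeq2 1.42.0, another scaling, no filter, another prior count, a replicate block, a term for the sets, fewer libraries and leaving out each library. Chrm4, Mmp3 and mitochondrial transcripts were not analysed here.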

Additional observations from a re-analysis of the deposited data

Results flagged for a closer look

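Among the named genes and list members, Cxcl5 and Egr3 went past 2-fold in opposite directions in the 2 constructs, with every library of a construct on the side given. Cxcl5, a neutrophil attractant, was at 0.52 CPM in EGFP 1 against 3.09 and 2.07 CPM in EGFP 2 and EGFP 3 (difference -2.08), and at 25.4 and 22.7 CPM in rM3Ds 2 and rM3Ds 3 against 9.92 CPM in rM3Ds 1 (difference 1.27). Egr3, an immediate-early transcription factor, was at 2.70 CPM in EGFP 1 against 0.858 and 1.90 CPM (difference 1.01), and at 1.72 and 1.12 CPM in rM3Ds 2 and rM3Ds 3 against 3.93 CPM in rM3Ds 1 (difference -1.43). That the constructs differ was not tested for either gene.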

How the results depend on the processing

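The 693 higher and 293 lower genes became 717 to 1115 and 291 to 731 when each library was left out in turn. The counts were largest without rM3Ds 1 (1115 and 731, of which 690 and 293 were shared with the full set) and without EGFP 1 (955 and 525, with 693 and 293 shared), where a single construct sets the rule. The sharing in these 2 cases follows nearly in full from that rule and adds no support. With another scaling (694 and 292), no filter on low counts (853 and 334) or a prior count of 0.5 (718 and 324), they stayed within 1.5 times. For rM3Ds against EGFP, the 2 genes called became 61 with DESeq2, 4 with the replicate block, 0 on the 6 libraries alone and 2 to 115 when each library was left out, 115 without rM3Ds 1. For hM3Dq against mCherry at 3 days, the 0 genes called became 140 with DESeq2, 1 with no filter, 0 with the replicate block and 0 to 1257 when each library was left out, 1257 without mCherry 3. The cause was not tested. Whether same-numbered libraries share more than a number is not in the labels. Deviations of same-numbered rM3Ds and EGFP libraries at 90 min correlated at -0.76, -0.57 and -0.57, and those of the 3 day groups at 0.04, 0.02 and 0.04. Each same-numbered pair at 90 min lies in opposite sets, while rM3Ds 1 correlated with EGFP 2 and EGFP 3 at 0.63 and 0.69. Pairing by number therefore cannot be read from the 90 min values. No value changed direction past a threshold, but sizes did shift. Of the checks on list medians, 56 moved by at least the spread between libraries of a set and 151 did not. Of those on set differences, gene counts included, 195 moved and 903 did not. At the depth of the 90 min libraries, 3 counts correspond to 0.119 to 0.187 CPM, so levels under that are not told from 0, and low genes such as Pcdh10 rest on few counts in the C3-high libraries.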

Other observations

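Further gene families, chosen after their values were seen, are given as values in the order used above. Over all genes, 5.1% were higher in the Mki67-high libraries and 2.16% lower. Of 12 Wnt genes tested 4 were higher in the Mki67-high libraries and 2 lower (median 0.28), and Wnt4 was at 106, 79.9 and 71.4 CPM against 15.2, 14.3 and 14.5 CPM. Shh, the hedgehog ligand, was at 22.3, 14.3 and 14.3 CPM against 1.20, 1.04 and 1.88 CPM, and at 15.8 CPM in hM4Di 1. The EGF family ligand epiregulin (Ereg) was at 110, 81.1 and 70.4 CPM against 9.38, 9.33 and 12.8 CPM, and at 50.3 to 52.5 CPM in the 3 hM3Dq libraries. Aldh1a3, an enzyme of retinoic acid synthesis, was at 94.7, 31.6 and 29.9 CPM against 3.72, 2.48 and 2.34 CPM.

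Of 25 Cfap genes tested, which are named for cilia and flagella, 6 were lower and none was higher (median -0.66). Over all genes 2.16% were lower and 5.1% higher, and this family was chosen after its values were seen. Cfap54 was at 10.3, 11.4 and 13.8 CPM against 33.9, 31.7 and 27.7 CPM, while none of 8 axonemal dynein heavy chains reached 2-fold in both constructs (median -0.13). The endocytic receptor gene Lrp2 was at 14.6, 22.3 and 29.0 CPM against 129, 106 and 111 CPM, and the neurotrophic cytokine gene Cntf at 7.43, 14.7 and 11.1 CPM against 51.7, 53.4 and 55.3 CPM. Cntf was also at 9.89 CPM in hM4Di 1, against 38.4 to 64.2 CPM in the other 5 hM4Di and hM3Dq libraries.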
